A study of Mus musculus with 9 samples.

Results

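Macrophage chemokines are the 10 genes Ccl2, Ccl3, Ccl4, Ccl5, Ccl7 and Ccl9 of the CC class and Cxcl1, Cxcl2, Cxcl10 and Cxcl16 of the CXC class. They were taken by mouse symbol from 47731 genes in the RNA count table, where all 10 were found. RNA from mouse macrophages labelled Tet2 Knockout was sequenced in 2 libraries (KO) and from macrophages labelled Wild-Type in 3 libraries (WT), and 5-hydroxymethylcytosine (5hmC) in genomic DNA was profiled in 2 libraries of each genotype. All macrophages are labelled as kept in M-CSF, the growth factor of the macrophage lineage, and as passage 0. The sources used here do not state the kind of Tet2 allele, the strain and age of the mice, the tissue the cells came from or the number of animals. Spread between libraries of a genotype may therefore be technical, and p-values measure that spread alone. Every fold change is KO over WT.

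Chemokines are small secreted proteins that draw leukocytes along a gradient by binding G protein-coupled receptors. Their classes are named for the leading cysteines, which are adjacent in CC chemokines and separated by another residue in CXC chemokines. Ccl3, Ccl4 and Ccl5 draw monocytes and T cells, Ccl2 and Ccl7 draw monocytes through Ccr2, and Ccl9 is a mouse chemokine made by macrophages and osteoclasts that signals through Ccr1. Cxcl1 and Cxcl2 draw neutrophils through Cxcr2, Cxcl10 is induced by interferon and draws T cells through Cxcr3, and Cxcl16 is made as a membrane protein that binds Cxcr6. In macrophages many chemokine genes are switched on by NF-kappaB after stimulation through Toll-like receptors or by TNF.

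In the RefSeq table for GRCm38, 7 of the 10 genes lie on chromosome 11 and 3 on chromosome 5. Ccl2 (ENSMUSG00000035385, 82035577 to 82037452) and Ccl7 (ENSMUSG00000035373, 82045712 to 82047525) are neighbours on chromosome 11. Ccl5 (ENSMUSG00000035042, 83525778 to 83530518), Ccl9 (ENSMUSG00000019122, 83572917 to 83578636), Ccl3 (ENSMUSG00000000982, 83647843 to 83649378) and Ccl4 (ENSMUSG00000018930, 83648624 to 83664683) form another cluster there, with gaps of 42.4 kb from Ccl5 to Ccl9 and 69.2 kb from Ccl9 to Ccl3. Cxcl16 (ENSMUSG00000018920, 70454389 to 70459984) lies apart on the same chromosome. On chromosome 5, Cxcl1 (ENSMUSG00000029380, 90891245 to 90893121) and Cxcl2 (ENSMUSG00000058427, 90903899 to 90905938) are neighbours, and Cxcl10 (ENSMUSG00000034855, 92346638 to 92348889) lies farther along it.

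The RNA libraries held 16053426 to 56394358 counts in genes and the 5hmC libraries 42489 to 219116 counts in listed peaks. Tet2 RNA, counted over the whole gene, stood at 232 and 126 counts per 1000000 (CPM) in KO and at 86.2, 144 and 41.6 CPM in WT, so these counts did not separate the genotypes. A knock-in feature of the gene table had 1452 and 2245 counts in KO and 0 in all 3 WT libraries. Macrophage markers were abundant everywhere: 10 of 10 were detected and their sum was 18298 and 21073 CPM in KO and 19165, 15456 and 14745 CPM in WT. The sum hides differences in both directions, with 4 of the 10 fitted higher and 6 lower in KO. Adgre1 was at 7243 and 5904 CPM in KO and 1321, 3085 and 805 CPM in WT. Cd68 was at 214 and 370 CPM in KO and 1287, 671 and 703 CPM in WT. WT 3 stood apart. Its 14 stromal and osteoblast markers summed to 5465 CPM, against 25.4 and 16.5 CPM in the KO libraries and 7.68 and 8.14 CPM in the other WT libraries. Bulk RNA cannot tell fewer cells of a type from less RNA per cell.

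All 10 chemokine genes passed the filter on low counts, and 9 had a higher fitted level in KO than in WT. Their median log2 difference was 1.35, while that of all 14851 tested genes was -0.03, with 48.4% of genes higher in KO. None of the 10 passed an adjusted p of 0.05 in edgeR, where 0.0135% of all genes did. At an unadjusted p under 0.05, 4 of the 10 were higher in KO in edgeR, against 5.95% of all genes. DESeq2 called Ccl3, Ccl4 and Ccl5 higher in KO, against 3.37% of all genes called higher and 8.15% called in either direction. It gave no p-value for Ccl2 and Ccl7, so it could not call them. None of the 10 was called by limma-voom, against 0.00673% of all genes. The 6 CC genes had a median log2 difference of 1.61 and the 4 CXC genes of 1.05. Both KO libraries lay above all 3 WT libraries for 5 of the 10 genes, 4 of them CC and 1 CXC, while 17.2% of all genes showed that pattern.

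Ccl3, Ccl4, Ccl9 and Ccl5 were the CC genes whose KO libraries both lay above all WT libraries, and Cxcl10 the CXC gene. Ccl3, a ligand of Ccr1, was at 274 and 197 normalised CPM in KO and at 50.3, 42.6 and 79.8 normalised CPM in WT. Both KO values lay above every WT value, the lower KO value being 2.48 times the highest WT value. Ccl3 averaged 236 ± 54.1 normalised CPM in KO and 57.6 ± 19.6 normalised CPM in WT (SD, n = 2 and 3). The fitted difference was 4.09-fold (log2 2.03 ± 0.34, SE), with an adjusted p of 0.169 in edgeR and 0.000125 in DESeq2. Ccl4, its neighbour on chromosome 11, was at 200.5 and 168 normalised CPM in KO and at 33.5, 19.4 and 75.3 normalised CPM in WT. The groups again did not overlap, and the fitted difference was 4.31-fold (log2 2.11 ± 0.57, SE; edgeR adjusted p = 0.238, DESeq2 adjusted p = 0.0215). In the RefSeq table for GRCm38 the spans of Ccl3 and Ccl4 overlap by 755 bases, so their counts could share reads.

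Ccl9 was at 940 and 1419 normalised CPM in KO and at 302, 652 and 600 normalised CPM in WT. The lower KO library was 1.44 times the highest WT library, and the fitted difference was 2.28-fold (log2 1.19 ± 0.43, SE; edgeR adjusted p = 0.320). Ccl5, a chemokine of T cells and activated macrophages, was much scarcer, at 6.41 and 9.90 normalised CPM in KO and 0.0684, 1.38 and 0.836 normalised CPM in WT. These values rest on 105 and 260 counts in KO and on 1, 75 and 50 counts in WT. The fitted log2 difference was 3.36 ± 0.98 (SE; edgeR adjusted p = 0.260, DESeq2 adjusted p = 0.0129). The Ccl5 span lies wholly within that of a lncRNA, Gm32650, in the RefSeq table, and without a stated strand setting reads of the pair cannot be told apart.

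**Figure D1:**
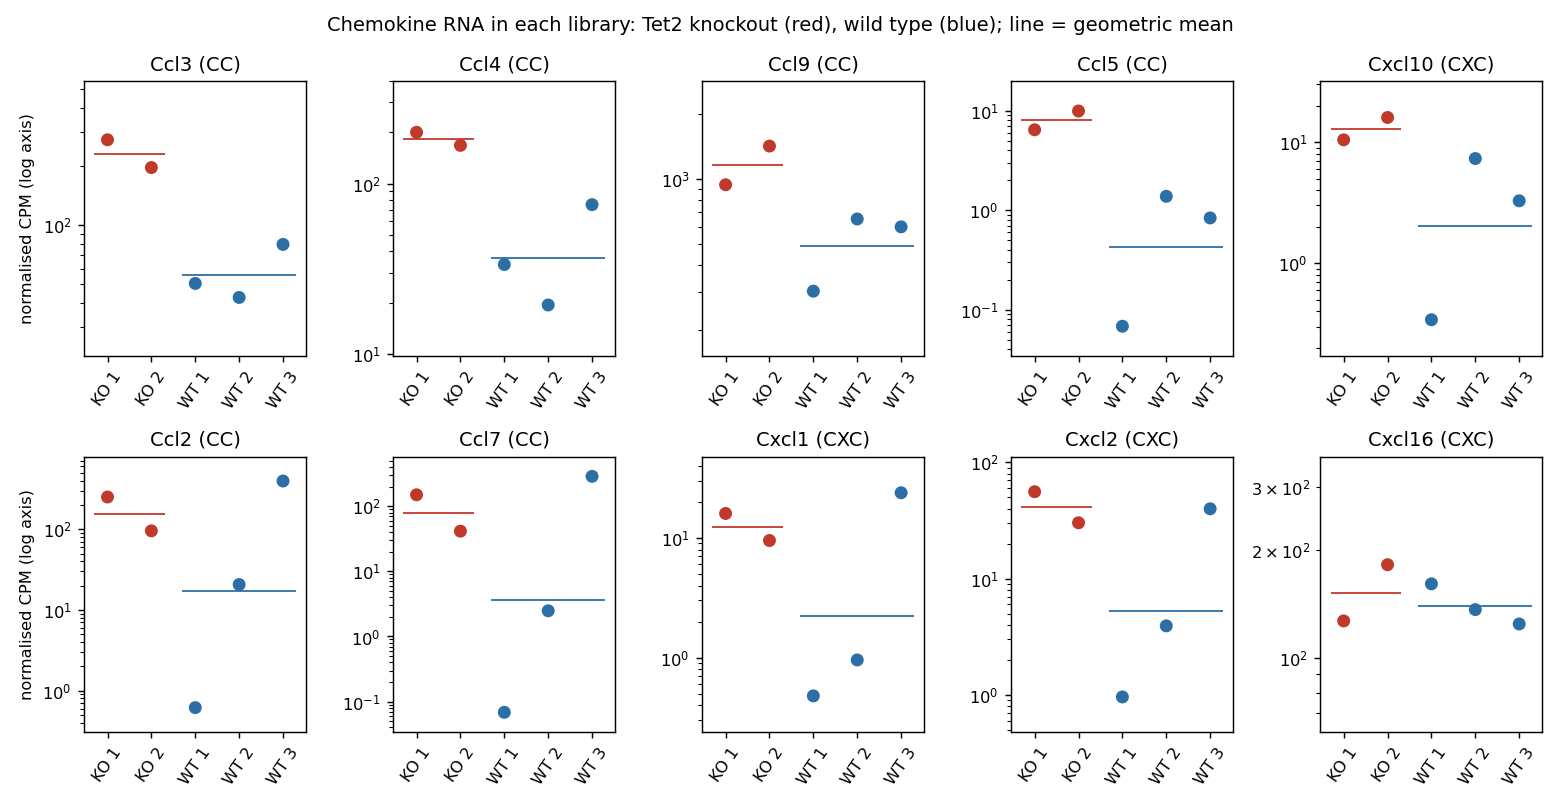
Normalised CPM (log axis) of each chemokine gene in the 2 KO libraries (red) and the 3 WT libraries (blue), with the geometric mean of each genotype as a line. In the upper row both KO points lie above all WT points, whereas WT 3 is the highest library for Ccl2, Ccl7 and Cxcl1 and lies between the KO libraries for Cxcl2, and the genotypes overlap for Cxcl16.

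The monocyte chemokines Ccl2 and Ccl7 followed another pattern. Ccl2 was at 251 and 95.6 normalised CPM in KO and at 0.615, 20.7 and 396 normalised CPM in WT. WT 3 was the highest of the 5 libraries and WT 1 the lowest, so the genotypes overlapped. The fitted log2 difference was 0.32 ± 1.97 (SE; edgeR adjusted p = 0.958). Ccl7 was at 150.3 and 41.5 normalised CPM in KO and at 0.0684, 2.48 and 289 normalised CPM in WT, on 1, 135 and 17273 WT counts. Its fitted log2 difference of -0.02 ± 2.36 (SE; edgeR adjusted p = 0.997) has a 95% interval of -5.91 to 5.87, which reaches far to both sides of 0.

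Among the CXC genes, the neutrophil attractants Cxcl1 and Cxcl2 shared that pattern. Cxcl1 was at 16.0 and 9.52 normalised CPM in KO and at 0.479, 0.956 and 23.8 normalised CPM in WT. The KO libraries lay above WT 1 and WT 2 and below WT 3, and the fitted log2 difference was 0.59 ± 1.57 (SE; edgeR adjusted p = 0.898). Cxcl2 was at 55.9 and 30.2 normalised CPM in KO and at 0.957, 3.91 and 39.8 normalised CPM in WT. Its WT 3 value lay between the KO values, and the fitted log2 difference was 1.52 ± 1.38 (SE; edgeR adjusted p = 0.652).

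Cxcl10, the interferon-induced member, also had both KO libraries above every WT library. It was at 10.4 and 16.0 normalised CPM in KO and at 0.342, 7.31 and 3.28 normalised CPM in WT, on 171 and 419 counts in KO and 5, 398 and 196 in WT. The lower KO library was 1.43 times the highest WT library, and the fitted log2 difference was 1.84 ± 1.04 (SE; edgeR adjusted p = 0.492). Its span lies wholly within that of Art3 in the RefSeq table. Cxcl16, the membrane-bound chemokine, was at 127 and 182 normalised CPM in KO and at 161, 136 and 124 normalised CPM in WT. The genotypes overlapped, and the log2 difference of 0.14 ± 0.25 (SE; edgeR adjusted p = 0.845) has a 95% interval of -0.49 to 0.76. Its span overlaps that of Zmynd15 by 552 bases.

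Promoter sequence was matched for 5 of the 10 genes, Ccl3, Ccl9, Cxcl1, Cxcl2 and Cxcl10, in RefSeq windows of GRCm38.p6. The 250 bases before the start are shown, 5′ to 3′ on the strand of the gene, for 4 of them: the neighbours Cxcl1 and Cxcl2, whose RNA had like profiles, Cxcl10, which differed from them in WT 3, and Ccl3, which had the smallest p of the CC genes. Capitals mark matches to the NF-kappaB consensus on either strand. Positions are chr5:90890995-90891244 for Cxcl1 and chr5:90903649-90903898 for Cxcl2, both on the plus strand, and chr5:92348890-92349139 for Cxcl10 and chr11:83649379-83649628 for Ccl3, both on the minus strand.
Cxcl1: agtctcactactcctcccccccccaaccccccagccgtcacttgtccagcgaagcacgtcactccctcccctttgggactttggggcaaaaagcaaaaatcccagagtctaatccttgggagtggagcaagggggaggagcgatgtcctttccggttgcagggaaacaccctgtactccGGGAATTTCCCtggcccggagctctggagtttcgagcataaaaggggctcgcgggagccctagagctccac
Cxcl2: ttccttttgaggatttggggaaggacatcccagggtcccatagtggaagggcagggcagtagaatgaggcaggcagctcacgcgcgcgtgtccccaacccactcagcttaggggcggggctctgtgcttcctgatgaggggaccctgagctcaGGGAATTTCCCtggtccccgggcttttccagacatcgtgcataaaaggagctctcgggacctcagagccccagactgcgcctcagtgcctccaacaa
Cxcl10: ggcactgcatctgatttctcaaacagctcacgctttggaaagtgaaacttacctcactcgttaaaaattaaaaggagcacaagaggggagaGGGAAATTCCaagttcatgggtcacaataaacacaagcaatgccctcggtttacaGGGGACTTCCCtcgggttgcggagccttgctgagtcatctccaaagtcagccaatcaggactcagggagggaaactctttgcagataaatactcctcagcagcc
Ccl3: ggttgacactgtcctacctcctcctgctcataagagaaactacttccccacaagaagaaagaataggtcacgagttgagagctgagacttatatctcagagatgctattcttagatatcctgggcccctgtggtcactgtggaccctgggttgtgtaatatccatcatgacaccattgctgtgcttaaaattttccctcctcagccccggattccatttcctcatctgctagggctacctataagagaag

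Cxcl1 and Cxcl2 hold the same match, GGGAATTTCC, which begins 71 bases before the start in Cxcl1 and 97 bases before it in Cxcl2. Read on the other strand, the run overlaps a further match that is offset by 1 base. This 10-letter run was taken from the Cxcl1 window, so its match there was fixed in advance. It is in 0.0852% of 32851 promoter windows, searched on both strands. Any NF-kappaB consensus match is in 7.25%, a share that must be larger because the consensus allows this run and others. Cxcl10 holds a consensus match that begins 159 bases before its start (GGGAAATTCC) and overlapping ones from 104 bases before it. Its window also holds TTTCNNTTTC, a core of the interferon response element, on the other strand (2.98% of windows). It further holds TGANTCA, a form of the AP-1 motif that allows any middle base, as TGAGTCA (6.75% of windows). Ccl9 has an NF-kappaB consensus match, 35 bases before its start on the other strand, and TATAAA (12.4% of windows). It matches TGANTCA with another middle base, as TGAATCA. The Ccl3 window has none of these motifs. A match describes the sequence and is no measure of binding.

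The overlap of genotypes for Ccl2, Ccl7, Cxcl1 and Cxcl2 came from WT 3, the library with the stromal transcripts. Of 14 stromal and osteoblast markers, all were detected and 11 were highest in WT 3. Col1a1, the main collagen of bone, was at 0.436 and 0.157 CPM in KO and 0.285, 0.273 and 1214 CPM in WT. Col3a1, a fibroblast collagen, had no counts in either KO library or in WT 1 and was at 848 CPM in WT 3. Cxcl12, a chemokine of stromal cells, likewise had no counts in KO and was at 67.1 CPM in WT 3. Other markers of the list were present in KO, above their levels in WT 1 and WT 2. Postn was at 6.85 and 2.24 CPM in KO and 0.285, 0.428 and 54.2 CPM in WT. Pdgfrb was at 4.86 and 1.33 CPM in KO and 0.398, 0.487 and 122.7 CPM in WT. Runx2 alone of the 14 was higher in both KO libraries than in every WT library. The part of stromal cells in the chemokine RNA of WT 3 was not tested.

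**Figure D2:**
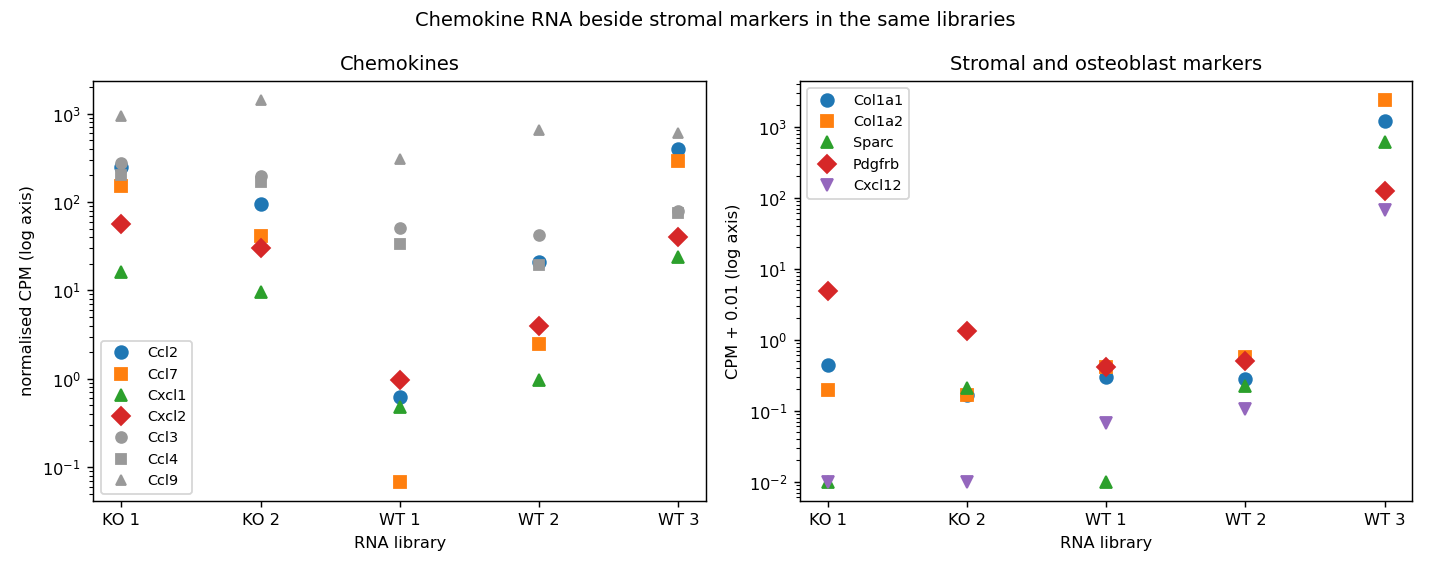
Left, normalised CPM (log axis) of 7 chemokine genes by library; right, CPM plus 0.01 (log axis) of 5 stromal and osteoblast markers in the same libraries. The markers stand high in WT 3 alone, where Ccl2, Ccl7, Cxcl1 and Cxcl2 (coloured) are also high, while Ccl3, Ccl4 and Ccl9 (grey) stay below their KO levels.

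Without WT 3 all 10 genes had a higher fitted level in KO, as did 49.6% of all genes, and the median log2 difference was 3.07 for the CC and 2.91 for the CXC genes. Both KO libraries then lay above both remaining WT libraries for 9 of the 10 genes, against 24.8% of all genes. In this fit 8 of the 10 had an unadjusted p under 0.05, against 7.69% of all genes that did so with a higher level in KO, and none passed over all genes in edgeR, where the smallest adjusted p of the 10 was 0.144. Without KO 1, KO 2, WT 1 or WT 2, the genes at an unadjusted p under 0.05 numbered 1, 2, 4 and 5 in edgeR, all higher in KO, against 1.43%, 3.3%, 4.71% and 6.98% of all genes. In the fit without WT 3, Ccl7 had a log2 difference of 6.08 ± 1.41 and Ccl2 of 3.9998 ± 1.49 (SE). In that fit Cxcl1 had 4.08 ± 0.56 and Cxcl2 4.09 ± 0.76 (SE). Cxcl16 stayed level there, with a log2 difference of 0.05 ± 0.27 (SE). Of the 14 stromal and osteoblast markers, 3 were tested in that fit, and all 3 were higher in KO at an unadjusted p under 0.05. Their median log2 difference was 2.67. The part of stromal cells in the chemokine RNA of KO was not tested. Without KO 1, KO 2, WT 1 or WT 2, the chemokine genes with no overlap numbered 6, 6, 5 and 5, against 26.1%, 30.5%, 21.6% and 24.2% of all genes. WT 1 was the lowest library for 7 of the 10 chemokine genes, and neither KO library was the lowest for any. How often each library was the lowest over all genes was not counted, so this describes the 10 genes alone.

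**Figure D3:**
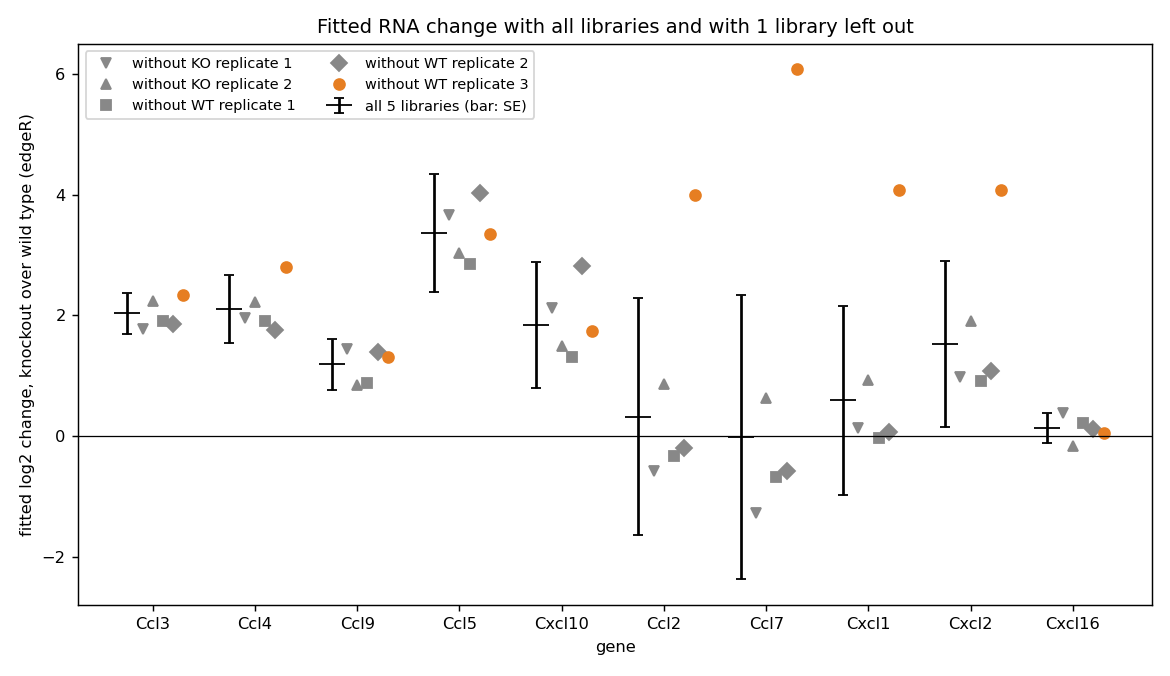
Fitted log2 difference of KO over WT for each chemokine gene, with all 5 RNA libraries (dash, with its SE) and with each library left out in turn (symbols). The values without WT 3 (orange) lie between 3.9998 and 6.08 for Ccl2, Ccl7, Cxcl1 and Cxcl2, far from the other symbols, while values lie between 1.77 and 2.34 for Ccl3, 1.76 and 2.80 for Ccl4, 0.85 and 1.45 for Ccl9, 2.86 and 4.04 for Ccl5 and 1.303 and 2.82 for Cxcl10.

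No marker of another cell type was called over all genes in edgeR. At an unadjusted p under 0.05, 4 of 6 tested B cell, 1 of 5 dendritic cell and 1 of 3 endothelial markers were higher in KO. Of 4 tested megakaryocyte and platelet markers, 1 was lower. Of all genes, 5.95% were higher at that p and 13.8% differed in either direction. DESeq2 called the same numbers of these lists over all genes, against 3.37% of all genes called higher and 8.15% in either direction. The 7 dendritic cell markers, all detected, summed to 20.3 and 9.11 CPM in KO and 3.93, 4.97 and 2.18 CPM in WT. Of 10 B cell markers, 8 were detected, and Vpreb3 and Igll1 were at 0 in every library. Their sum overlapped between genotypes, at 223 and 181 CPM in KO and 176, 209 and 137 CPM in WT, while 6 of them were higher in both KO libraries than in any WT library, a pattern that 17.2% of all genes showed. The sum is mostly Ighm and Blnk, which ran in opposite directions. Ighm was at 111 and 64.8 CPM in KO and 34.9, 63.4 and 8.56 CPM in WT. Blnk was at 86.6 and 104 CPM in KO and 140, 143 and 113 CPM in WT. Of 10 T and NK cell markers, Cd3e, Cd8a and Gzma were at 0 throughout, and 7 were detected. The 10 neutrophil markers summed to 1.74 and 178 CPM in KO and 129, 10.7 and 2.06 CPM in WT, which does not follow genotype. The T and NK markers summed to 1.43 and 5.06 CPM in KO and 31.4, 6.06 and 7.43 CPM in WT, nearly all of it Cd4, at 1.18 and 4.36 CPM in KO and 30.96, 5.49 and 6.84 CPM in WT, and the 5 megakaryocyte and platelet markers, which include Pf4 and Ppbp, to 47.1 and 39.4 CPM in KO and 209, 85.9 and 212 CPM in WT. The part of these cells in the chemokine differences was not tested.

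Some neighbouring genes had like profiles and others did not. The measure was the root-mean-square difference between 2 genes' centred log2 levels over the 5 RNA libraries, in which 0 means the same profile. Of 45 pairs of members, Ccl3 and Ccl4 had the smallest difference, 0.36 log2 units, and Cxcl1 and Cxcl2, which lie 10.8 kb apart on chromosome 5, the next, 0.49. Ccl5 and Cxcl10, on different chromosomes, ranked 3 of 45 at 0.67. Ccl2 and Ccl7, 8.26 kb apart on chromosome 11, ranked 7 of 45 at 0.99. Ccl5 was unlike the other genes of its cluster: with Ccl9 it ranked 18 (1.52), with Ccl3 19 (1.52) and with Ccl4 21 (1.59). Of 8768 other genes compared with Ccl3, those most like it were Ms4a6d (0.20), Batf (0.26) and Il4ra (0.28), and of 8769 compared with Cxcl10, those most like it were Rtp4 (0.30), Ly6e (0.31) and Col4a5 (0.35).

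The other chemokine genes did not share one direction. Of 15 other CC genes, 6 were tested, 3 higher and 3 lower in KO, with a median log2 difference of 0.03. Ccl6, which lies beside Ccl9, was at 118 and 90.4 normalised CPM in KO and 202, 129 and 1220 normalised CPM in WT (edgeR adjusted p = 0.416). Ccl12, a further Ccr2 ligand, was at 12.8 and 5.18 normalised CPM in KO and 0, 0.625 and 26.9 normalised CPM in WT, highest in WT 3 as Ccl2 was, and Ccl25 had a log2 difference of 0.22 ± 0.46 (SE). Of 13 other CXC, CX3C and XC genes, 6 were tested, 3 higher and 3 lower (median log2 -0.40). Cxcl14 was at 0.733 and 0.914 normalised CPM in KO and 2.39, 3.36 and 14.8 normalised CPM in WT (edgeR adjusted p = 0.292). The platelet chemokines Pf4 and Ppbp had log2 differences of -0.94 ± 1.25 and -2.86 ± 1.39 (SE). None of these tested genes passed over all genes in edgeR.

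Among chemokine receptors, 10 of 23 were tested, 6 higher and 4 lower in KO, and none passed in edgeR. Cxcr4, the receptor of Cxcl12, was at 3.97 and 16.4 normalised CPM in KO and 338, 73.3 and 229 normalised CPM in WT (log2 -4.38 ± 0.99, SE; edgeR adjusted p = 0.209). Ccrl2, an atypical receptor, had a log2 difference of -3.56 ± 1.13 (SE).

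Inducers and brakes of NF-kappaB were next. Of 15 NF-kappaB factors and feedback inhibitors, all were tested, 12 higher and 3 lower, with a median log2 difference of 0.52. At an unadjusted p under 0.05 in edgeR, 6 were higher, against 5.95% of all genes, and both KO libraries lay above every WT library for 9 of the 15, against 17.2% of all genes. Nfkbia, which holds NF-kappaB in the cytoplasm and is itself an NF-kappaB target, was at 321 and 299 normalised CPM in KO and 66.0, 97.9 and 129 normalised CPM in WT (edgeR adjusted p = 0.188). Nfkbiz, a nuclear co-factor, was at 720.1 and 614 normalised CPM in KO and 18.3, 132 and 32.8 normalised CPM in WT (edgeR adjusted p = 0.230). Bcl3, a related nuclear regulator, had a log2 difference of 1.58 ± 0.35 (SE). Of 8 inducing cytokines, 6 were tested, 4 higher and 2 lower. Il1a, at 0.183 and 0.114 normalised CPM in KO and 3.01, 0.110 and 6.12 normalised CPM in WT, had a log2 difference of -4.37 ± 1.74 (SE), whereas Il1b had 2.60 ± 0.99 (SE). Tnf, a cytokine that activates NF-kappaB in its target cells, was at 221 and 207 normalised CPM in KO and 27.8, 38.8 and 21.6 normalised CPM in WT (log2 2.86 ± 0.29, SE; edgeR adjusted p = 0.137). For Il1a the genotypes overlapped.

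**Figure D4:**
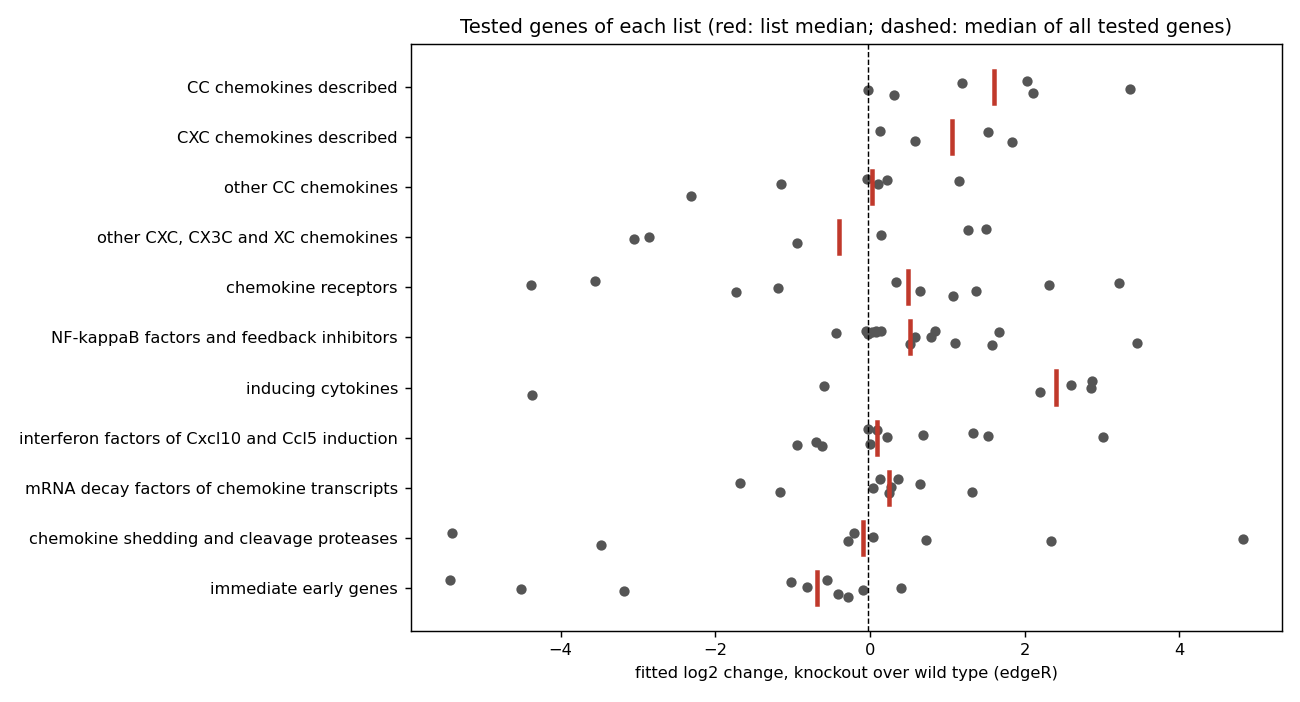
Fitted log2 difference of KO over WT for each tested gene (points) of each gene list (rows), with the list median in red and the median of all tested genes as a dashed line at -0.03. The chemokine genes described lie mostly right of the line, at medians of 1.61 (CC) and 1.05 (CXC), while 9 of 10 immediate early genes lie left of 0, a split that was 6 of 10 without WT 3.

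Immediate early genes, which respond within minutes to cell stimulation, lay mostly on the other side with all libraries. Of 11, 10 were tested, 1 higher and 9 lower in KO, with a median log2 difference of -0.68 and none called in edgeR. At an unadjusted p under 0.05 in edgeR, 3 were lower. Of all genes, 13.8% differed in either direction at that p, and 5.95% were higher. Without WT 3, 4 were higher and 6 lower (median -0.44), with the replicate block 4 and 6 (median -0.36) and with limma-voom 3 and 7. Egr2 was at 2.14 and 2.17 normalised CPM in KO and 89.7, 25.5 and 32.9 normalised CPM in WT (edgeR adjusted p = 0.162). Fosb had a log2 difference of -5.43 ± 1.64 and Egr1 of -3.17 ± 1.27 (SE). Factors of interferon induction divided into 7 higher and 4 lower of 11. Stat2, which carries interferon signals to the nucleus, was at 221 and 158 normalised CPM in KO and 43.2, 103 and 52.2 normalised CPM in WT (edgeR adjusted p = 0.244). Irf1 had a log2 difference of -0.70 ± 0.21 (SE).

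Factors of mRNA decay, which set the lifetime of chemokine transcripts, divided into 7 higher and 2 lower of 9. Zc3h12a, a ribonuclease that cuts inflammatory mRNAs, was at 86.6 and 68.4 normalised CPM in KO and 28.5, 31.0 and 33.9 normalised CPM in WT (edgeR adjusted p = 0.162). Zfp36l2 was at 69.5 and 86.2 normalised CPM in KO and 376, 223 and 147 normalised CPM in WT, and Zfp36l1 had a log2 difference of -1.17 ± 0.34 (SE). Of 8 proteases that shed or cut chemokines, 4 were higher and 4 lower. Mmp12, the macrophage elastase, was at 60.3 and 112 normalised CPM in KO and 843, 698 and 1337 normalised CPM in WT (edgeR adjusted p = 0.162). Mmp9 had a log2 difference of 4.82 ± 1.63 (SE), and Mmp2, a stromal protease, was at 59.98 normalised CPM in WT 3 and at most 0.794 in the other libraries. None of the genes in these lists passed over all genes in edgeR. DESeq2 called 1 decay factor higher and 2 lower, and 1 protease higher and 1 lower. Of the lists above, it called 5 NF-kappaB genes and 3 interferon factors higher and 2 immediate early genes lower. It called 1 receptor higher and 3 lower, 1 inducing cytokine higher and 1 lower, and 1 other CXC, CX3C or XC gene lower. Of all genes it called 3.37% higher and 8.15% in either direction. Its adjusted p was 3.62e-14 for Tnf and 2.29e-10 for Mmp12.

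The 5hmC data had few counts at these genes. TET enzymes make 5hmC by oxidising 5-methylcytosine, and the listed peaks were called on merged libraries of each genotype, so a peak called in 1 genotype tends to be higher there. Counts of the KO libraries agreed more closely over the peaks than independent sampling gives (chi-square of 0.575 for each degree of freedom, with a probability of 2.6e-73 of a value this low), so they differed by less than the sampling noise and were counted as 1 sample. Only 2 of 9151 listed peaks overlapped the span of a chemokine gene. The peak at chromosome 11, 83528018 to 83528413, within Ccl5, had 0 and 2 counts in KO and 3 and 24 counts in WT. The count of 0 allows up to 6.49 per 100000 counts in listed peaks, and the WT counts amount to 7.03 and 10.95 per 100000. The peak at 83651532 to 83651930, within the RefSeq span of Ccl4 and 2.15 kb upstream of Ccl3, had 1 and 2 counts in KO and 4 and 26 counts in WT, or 2.16 and 4.71 per 100000 in KO and 9.37 and 11.9 per 100000 in WT.

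The nearest listed peaks to the other genes lay 0.968 to 70.9 kb away. Downstream of Cxcl1, at 1.09 kb, the peak had 3 and 4 counts in KO and 8 and 40 counts in WT. Between Cxcl1 and Cxcl2, 2.75 kb upstream of Cxcl2, lay the only KO-called peak among the 8 (chromosome 5, 90900791 to 90901152). It had 7 and 10 counts in KO and 6 and 23 counts in WT, or 15.1 and 23.5 per 100000 in KO and 14.1 and 10.5 per 100000 in WT. The peak nearest to Cxcl16, 0.968 kb before its start coordinate, had 2 and 3 counts in KO and 7 and 35 counts in WT. That nearest to Ccl9, 19.1 kb upstream, had 4 and 3 counts in KO and 5 and 29 counts in WT. Ccl2 and Ccl7 had their nearest peak in common, 35.7 and 25.6 kb away, with 1 count in each KO library and 2 and 15 counts in WT. The 7 peaks other than the KO-called one were called in WT, and the mean KO share was below the mean WT share in each. Over the 2 peaks in gene spans the log2 ratio of the summed KO share to the summed WT share was -1.95. Over all 7044 WT-called peaks the median was -0.94 among the 6510 with counts in both genotypes, and 5808 of these had a lower summed share in KO. A lower KO share was thus the rule for peaks called in WT. None of these peaks had enough counts for the edgeR fit across peaks, in which 19.6% of 941 tested peaks were called, 154 higher and 30 lower in KO. With no filter none of them was called, while 5.09% of all 9151 peaks were, 461 higher and 5 lower in KO.

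**Figure D5:**
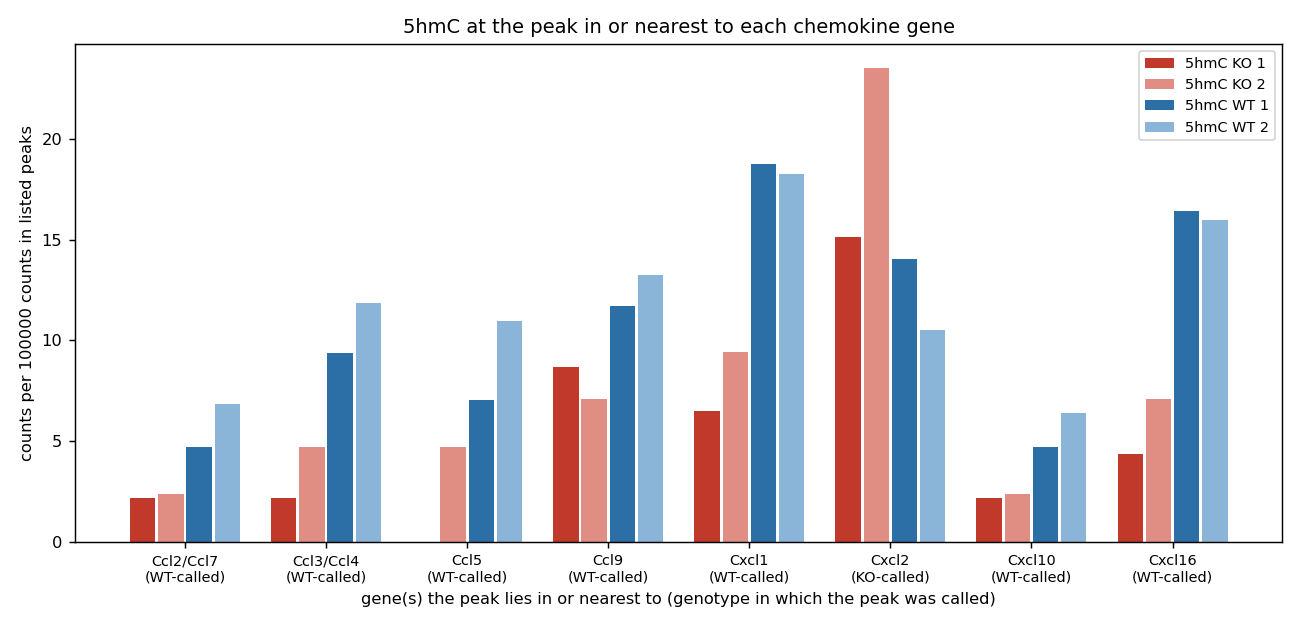
Counts per 100000 counts in listed peaks for the peak in or nearest to each chemokine gene, in the 2 KO libraries (reds) and the 2 WT libraries (blues). KO bars are lower at the 7 WT-called peaks, which rest on 0 to 4 counts in KO, and higher at the KO-called peak upstream of Cxcl2.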

How the data were processed

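The authors deposited whole-number counts of reads for each gene (RNA, ribodepleted per the labels) and for each listed peak (5hmC), with no scaling. Tools named in the submitters' processing notes are HTSeq, STAR, BWA, MACS2, Trim Galore and CASAVA 1.4, and the build is GRCm38. The sources used here do not state their roles, the annotation release, the strand setting or the handling of duplicates. Of 47731 genes, 47224 matched a symbol, and spans came from the RefSeq table of GRCm38.p6.

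Groups and replicate numbers came from sample titles. RNA was fitted over all genes with edgeR 4.0.16 in R 4.3.3 (glmQLFit, glmQLFTest, TMM, filterByExpr, two-sided, Benjamini-Hochberg, threshold 0.05). Normalised CPM divide a count by the TMM-scaled library size and multiply by 1000000, and profiles used log2 values with a prior count of 2. The SE is the fitted log2 difference divided by the root of F. Floors use 3 counts per library and, like intervals of counts, cover counting error only. On counts simulated with a dispersion of 0.255 over 14540 genes, 0% of 2-fold, 8% of 4-fold, 66% of 8-fold and 96% of 16-fold differences were recovered, so small differences were not detectable. Every simulated gene had that dispersion and no library was outlying, so the rates do not apply to genes with a wide spread, such as Ccl2 and Ccl7. Alternatives were DESeq2 1.42.0, limma-voom 3.58.1, other scalings and filters, a replicate block and leaving out each library.

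Genes named were all members, the 3 with the smallest p in each list at a mean of at least 1 CPM, and the 3 most alike at 10 normalised CPM or more. Some genes that this rule names are not reported here. Members and lists were chosen with earlier results of these data known.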

Additional observations from a re-analysis of the deposited data

How the results depend on the processing

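Over all genes edgeR called 2 with TMM, 1211 genes were called by DESeq2, 1 by limma-voom, 0 with total counts (1945 at an unadjusted p under 0.05), 4 at a threshold of 0.1 and 0 with the replicate block, and the count ranged from 0 to 0 with any 1 library left out. DESeq2 called 3 of the 10 chemokine genes, and the other alternatives, leaving out each library included, called 0. For Ccl2 and Ccl7 DESeq2 gave no p-value. The replicate block leaves WT 3 alone in its block, so it rests on the other 4 libraries. With it the median log2 difference was 3.43 for CC and 3.39 for CXC genes. The labels do not say that numbers pair the libraries, and same-numbered RNA libraries deviated together with r = 0.0012 and -0.12.

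With 1 library left out, the median ranged from 1.39 to 3.07 for CC and from 0.56 to 2.91 for CXC genes. Ccl2, between -0.59 and 3.9998 with 1 library left out, changed sign without KO replicate 1 (-0.59), WT replicate 1 (-0.34) or WT replicate 2 (-0.19). Ccl7, between -1.28 and 6.08, did so without KO replicate 2 (0.63) or WT replicate 3 (6.08), with limma-voom (2.88) and with the replicate block (6.16). Cxcl1, between -0.035 and 4.08, did so without WT replicate 1, and Cxcl16, between -0.16 and 0.38, without KO replicate 2. Ccl3, Ccl4, Ccl5, Ccl9, Cxcl2 and Cxcl10 kept a higher fitted level in KO under all 14 alternatives. The cause of the changes by tool was not tested.

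The log2 ratio of 5hmC shares, -1.95 over peaks in gene spans, was -0.95 over peaks within 10 kb. It ranged from -3.33 to -1.21 with 1 library left out. With no filter on peaks, the 9 peaks in, within 10 kb of or nearest to these genes entered the edgeR fit, with adjusted p from 0.214 to 0.952. In that fit 5.09% of all peaks were called, 461 higher and 5 lower in KO. The fit with knockout libraries as 2 samples tested none of them. The depth of the 5hmC libraries limits these values.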
